A study of Mus musculus with 6 samples.

Results

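The brush border and membrane mucin genes of mouse colon were examined as a set of 10 genes, taken by name from the count tables, and all 10 of 10 passed the filter on low counts among 24517 genes listed and 16347 tested. The set held Vil1, Myo1a, Espn and Eps8, which build the actin core of the microvillus, Cdhr2, Cdhr5, Ush1c and Myo7b, which form the adhesion complex at microvillus tips, and Muc1 and Muc13, which are transmembrane mucins. RNA sequencing had been done on whole colon from 2 groups of 3 libraries each. NSD2fl/fl mice carried the floxed Nsd2 gene without deletion and served as controls. In NSD2∆IE mice, the gene, which encodes a histone methyltransferase for lysine 36 of histone H3, was deleted in the intestine by Cre under the Villin promoter. Villin-driven Cre acts in intestinal epithelium, so muscle, nerve, fat and immune cells of the colon keep the gene. Both groups shared the C57BL/6J background and the diet, a high-fat cholesterol diet (HFCD), given for 16 weeks per the labels, where the methods of the study name a longer time. Male littermates entered feeding at 7 to 8 weeks of age, per the study's methods. The question was whether the genes that shape the apical surface of the colonocyte differed between the genotypes.

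Microvilli are finger-like extensions of the apical membrane of absorptive cells, each held up by a bundle of actin filaments that villin, espin and plastin cross-link and that myosin 1a ties to the membrane. Cadherins on neighbouring microvilli bind each other at the tips, and a scaffold with a motor protein holds them there, which packs the microvilli into an ordered brush border. Transmembrane mucins stand on the same surface as a glycocalyx and keep microbes and enzymes away from the membrane.

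Promoter sequence is shown for Vil1, since the villin promoter drives the Cre of the deletion, and for the 2 mucins, since their levels across libraries ran apart. The windows came from RefSeq on GRCm38.p6, the same build as the mm10 of the submitters' processing notes, and were stopped where the annotation places a 5′ UTR. Vil1 spans 74409384 to 74435560 of chromosome 1, Muc1 spans 89229056 to 89233381 of chromosome 3, and Muc13 spans 33794037 to 33819929 of chromosome 16. The other members lie on chromosome 4 (Espn), 6 (Eps8), 7 (Ush1c and Cdhr5), 10 (Myo1a), 13 (Cdhr2) and 18 (Myo7b). Vil1 and Muc1 are shown upstream of the start site, on the plus strand at chr1:74409134-74409375 and chr3:89228806-89229055, with matches to GGGCGG in capitals. Muc13 is shown upstream of its second RefSeq start, on the plus strand at chr16:33794239-33794366, which lies inside the gene span. Its match to CAAAGTNCA on the minus strand is in capitals, and the window at its first start had no such match.
Vil1: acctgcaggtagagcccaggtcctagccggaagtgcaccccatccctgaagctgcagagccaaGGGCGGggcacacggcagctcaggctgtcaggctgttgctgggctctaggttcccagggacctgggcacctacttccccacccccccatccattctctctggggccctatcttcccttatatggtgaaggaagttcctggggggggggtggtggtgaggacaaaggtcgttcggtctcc
Muc1: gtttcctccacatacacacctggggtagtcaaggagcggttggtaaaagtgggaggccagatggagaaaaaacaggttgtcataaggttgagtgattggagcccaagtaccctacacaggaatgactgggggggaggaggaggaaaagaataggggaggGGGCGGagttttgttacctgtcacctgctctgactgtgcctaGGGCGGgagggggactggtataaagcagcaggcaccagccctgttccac
Muc13: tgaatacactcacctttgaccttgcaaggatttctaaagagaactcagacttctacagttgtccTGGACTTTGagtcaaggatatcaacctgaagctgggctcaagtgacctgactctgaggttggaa

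Motifs of 3 kinds were searched on both strands in 32851 RefSeq promoter windows, of which 11 belonged to 8 members. CAAAGTNCA, the letters of an HNF4 type site, was found in 1.41% of all windows and in 1 member window, that of Muc13 shown above, where the match starts at -186 from the start site. TTTATNG, the letters of a CDX type site, was in 10.9% of all windows and in 1 member window, of Espn. GGGCGG, the letters of an SP/KLF type site, was in 35.7% of all windows and in 5 windows of 4 members, namely Vil1, Muc1, Espn and Ush1c. Such a match is a description of letters and not of a bound site.

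The libraries held 38041832 to 38604680 counts, with 20334 to 21312 genes detected in each. The targeted gene Nsd2 had 47.8, 59.1 and 68.9 CPM (reads of a gene relative to the library total, adjusted by TMM factors) in the NSD2fl/fl libraries and 24.5, 23.1 and 27.5 CPM in the NSD2∆IE libraries. The groups did not overlap in any of 5 sex-linked genes. Xist had 535 to 611 CPM in the 3 NSD2∆IE libraries and at most 0.104 CPM in the NSD2fl/fl libraries, and Ddx3y, Eif2s3y, Kdm5d and Uty had 22.5 to 57.3 CPM in the NSD2fl/fl libraries and 0 to 0.0241 CPM in the NSD2∆IE libraries. This goes against the stated use of males, and genotype and sex cannot be told apart in any comparison given here. The epithelial marker Epcam was present in every library, at 1233 to 1874 CPM.

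The libraries also differed in position markers within both groups. Hoxb13, a homeobox gene of the distal colon, had 365, 0.706 and 340.5 CPM in NSD2fl/fl replicates 1 to 3 and 310.01, 4.97 and 26.2 CPM in NSD2∆IE replicates 1 to 3. Hoxb6, a homeobox gene of more anterior identity, had 1.43, 69.5 and 1.10 CPM and then 2.09, 43.3 and 26.6 CPM in the same order. NSD2fl/fl replicate 2 and NSD2∆IE replicates 2 and 3 were thus low in the first and high in the second. Since NSD2fl/fl replicate 2 stands alone in its group, values without it are given beside the results that it moved. Without it, the NSD2fl/fl libraries left are all high in Hoxb13, while NSD2∆IE replicates 2 and 3 are low. In those values position markers thus differ more between the groups than with all libraries. Such values cannot separate genotype from colon position.

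Levels per gene length spanned a wide range within the set. By the deposited FPKM (reads scaled to gene length and library total), averaged over the NSD2fl/fl libraries, the order was Muc13 at 749 ± 118, Vil1 at 263 ± 85.2, Cdhr5 at 258 ± 140.4, Myo1a at 160.1 ± 27.3, Cdhr2 at 138 ± 69.1, Ush1c at 42.8 ± 7.16, Eps8 at 42.5 ± 19.6, Myo7b at 35.5 ± 21.1, Espn at 16.9 ± 5.91 and Muc1 at 2.87 ± 2.35 FPKM (SD, n = 3). Over all 6 libraries, the ranges of neighbours in this order did not overlap only between Muc13 and Vil1, between Cdhr2 and Ush1c, and between Espn and Muc1. The other neighbours could not be ordered beyond their spread. Cdhr5 lay above Myo1a within each of the 6 libraries, and Myo7b above Espn, although the ranges overlapped. Muc13 and Muc1, both mucins of the membrane, thus stood at opposite ends of the set.

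**Figure D1:**
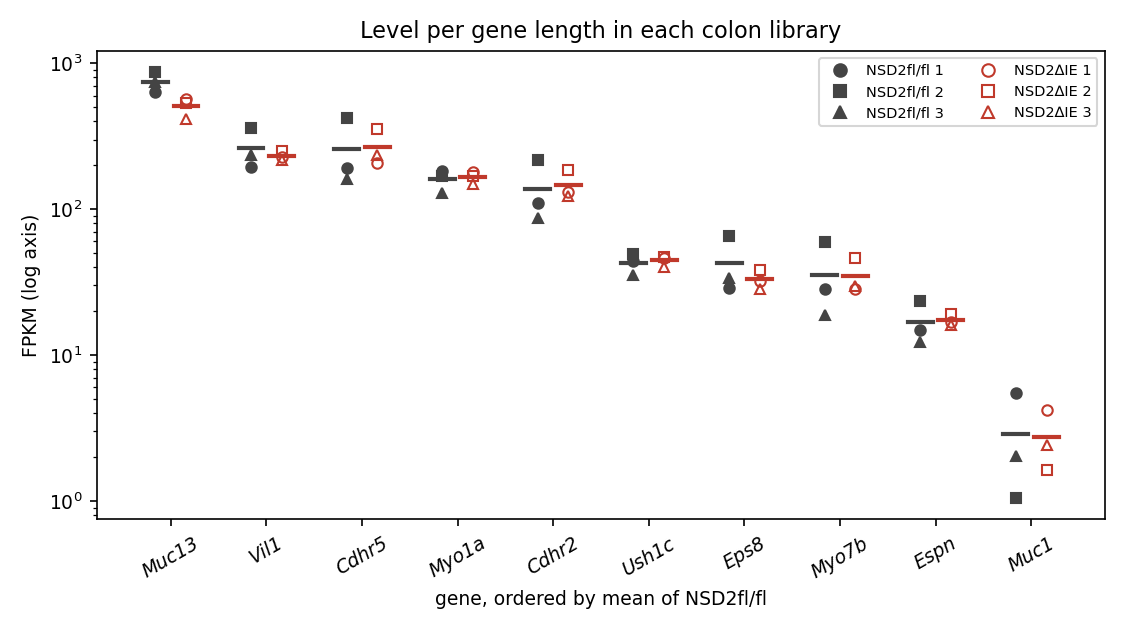
FPKM on a log axis for each of the 10 genes in the 6 colon libraries, ordered by the NSD2fl/fl mean. Filled grey symbols are NSD2fl/fl libraries, open red symbols NSD2∆IE libraries, the symbol shape gives the replicate number and the short bars are group means. Muc13 lies highest in every library and Muc1 lowest, and the groups are apart for Muc13 but interleave for the other 9 genes.

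Of the 10 members 0 passed an adjusted p under 0.05 in the genotype contrast by edgeR, a threshold that 5 of all genes tested passed (0.0306%), and 0 passed it by DESeq2 or limma. Muc13 was the only member with an unadjusted p under 0.05, and it was lower in NSD2∆IE. Across all genes 2.96% were lower at that threshold, so 1 of 10 members is close to what all genes show by count. Muc13 also passed that p together with the minimum fold change of the study, as did 2.21% of all genes in that direction. All 10 members had a fitted change below 0, against 56.3% of all genes, and their median log2 fold change was -0.13, beside -0.04 for all genes. This direction depended on the scaling, as given with the ratios to epithelial markers. In whole colon, fewer epithelial cells and less RNA of a gene per epithelial cell cannot be told apart.

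Muc13, a transmembrane mucin made by absorptive and goblet cells of the large intestine, was the member with the largest contrast in size. Its level was 1862, 2799 and 2362 CPM in NSD2fl/fl replicates 1 to 3 and 1655, 1541 and 1133 CPM in NSD2∆IE replicates 1 to 3. All 3 NSD2∆IE values lay below all 3 NSD2fl/fl values, as for 7.28% of all genes in that direction, and Muc13 was the only member without overlap. The means were 2341 ± 469 and 1443 ± 275 CPM (SD, n = 3 per group), a ratio of 0.616, and the log2 fold change was -0.70 (SE 0.242). The unadjusted p was 0.0242 and the adjusted p 0.374, both by edgeR's quasi-likelihood test. Without NSD2fl/fl replicate 2 the log2 fold change was -0.55, with an unadjusted p of 0.0560 by the same edgeR test. The unadjusted p also rose above 0.05 without NSD2fl/fl replicate 3 (0.0526), NSD2∆IE replicate 2 (0.0526) or NSD2∆IE replicate 3 (0.0921), each by edgeR. With Hoxb13 as a covariate, the log2 fold change was -0.69 (SE 0.219). Between the libraries high in Hoxb13, NSD2∆IE replicate 1 differed from the mean of NSD2fl/fl replicates 1 and 3 by -0.34 on the log2 scale, and between those low in it, the mean of NSD2∆IE replicates 2 and 3 differed from NSD2fl/fl replicate 2 by -1.08.

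Muc1, a mucin whose cytoplasmic tail takes part in signalling, had few reads and a pattern of its own. Its reads numbered 471, 90 and 174 in NSD2fl/fl and 361, 141 and 208 in NSD2∆IE, or 12.2, 2.54 and 4.89 CPM and then 9.11, 3.56 and 5.01 CPM. The value in NSD2fl/fl replicate 2 was the lowest of all 6, where the other 9 members had their highest. The groups overlapped, with a log2 fold change of -0.15 (SE 0.606). Without NSD2fl/fl replicate 2 it was -0.55, and without NSD2fl/fl replicate 1 it was 0.66, so the sign rested on single libraries. The ratio of Muc13 to Muc1 in FPKM ran from 115 to 831 across libraries, with the lowest in NSD2fl/fl replicate 1 and the highest in NSD2fl/fl replicate 2, and the groups did not differ beyond their spread (difference -0.73 on the log2 scale, exact permutation test, two-sided, p = 0.6). That difference was -0.06 when NSD2fl/fl replicate 2 was left out and -1.48 when replicate 1 of that group was.

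Among the actin core genes, Vil1, which encodes the actin bundler and severer villin, had 599.8, 1209.8 and 784 CPM in the NSD2fl/fl libraries and 686, 757 and 629.6 CPM in the NSD2∆IE libraries. The NSD2∆IE values lay within the NSD2fl/fl range, and the log2 fold change was -0.32 (SE 0.270). Without NSD2fl/fl replicate 2 it was under 0.01 in size. Eps8, which encodes a capping and bundling protein of the microvillus tip, had 149, 367 and 187 CPM and then 162, 196 and 137 CPM. Its highest value by far was in NSD2fl/fl replicate 2, the groups overlapped, and its log2 fold change was -0.51 (SE 0.343), or -0.02 without that library. Espn, which encodes the bundling protein espin, had 58.5, 101.8 and 52.4 CPM and then 65.04, 73.7 and 59.2 CPM, with a log2 fold change of -0.10 (SE 0.258), or 0.25 without NSD2fl/fl replicate 2. Myo1a, the motor that links the actin bundle to the membrane, was the steadiest of the set, at 654, 670.3 and 504 CPM and then 637, 597 and 498 CPM. Its highest value was 1.34 times its lowest, and its log2 fold change was -0.08 (SE 0.178), or under 0.01 in size without NSD2fl/fl replicate 2.

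The adhesion complex genes overlapped between the genotypes and, other than Ush1c, varied widely within them. Cdhr2, a protocadherin of the tip link, had 452, 968 and 383 CPM in the NSD2fl/fl libraries and 526, 744 and 472 CPM in the NSD2∆IE libraries. Cdhr5, its partner on the neighbouring microvillus, had 503, 1198 and 456 CPM and then 528, 915 and 573 CPM. In both genes replicate 2 of each group was the highest of its group and the groups overlapped. The log2 fold change was -0.05 (SE 0.381) for Cdhr2 and -0.10 (SE 0.421) for Cdhr5, and without NSD2fl/fl replicate 2 it was 0.47 and 0.49. Myo7b, the motor of the complex, had 185, 423 and 133 CPM and then 183, 299 and 181 CPM, with a log2 fold change of -0.16 (SE 0.444), or 0.47 without that library. Ush1c, which encodes the scaffold harmonin, was steadier, at 173, 212 and 149 CPM and then 179, 183 and 146 CPM, with a log2 fold change of -0.07 (SE 0.168). The 9 members other than Muc13 had adjusted p-values of 0.634 to 0.971 by edgeR, and none of the 4 changes seen without NSD2fl/fl replicate 2 in Espn, Cdhr2, Cdhr5 and Myo7b passed an adjusted p under 0.05.

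**Figure D2:**
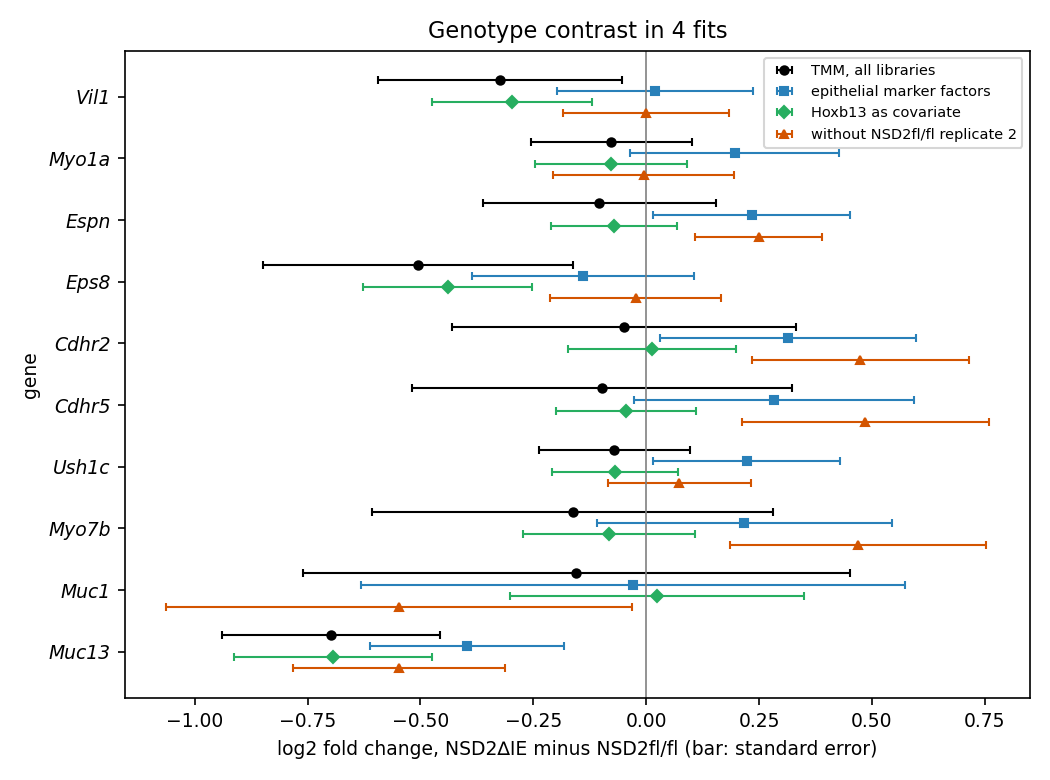
Log2 fold change of NSD2∆IE over NSD2fl/fl (horizontal axis, bars are standard errors) for the 10 genes in 4 fits of edgeR: TMM factors with all libraries, factors from epithelial markers, Hoxb13 as a covariate, and without NSD2fl/fl replicate 2. Muc13 lies below 0 in all 4 fits, from -0.70 to -0.40, while Espn, Cdhr2, Cdhr5, Ush1c and Myo7b lie below 0 with TMM factors and above 0 without NSD2fl/fl replicate 2.

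The larger pattern in the set was between libraries of one genotype. NSD2fl/fl replicate 2 was the highest of the 6 libraries for 9 of 10 members, all but Muc1, as it was for 21% of all genes tested. Its level over the mean of the other NSD2fl/fl libraries was 2.66 for Myo7b, 2.50 for Cdhr5, 2.32 for Cdhr2, 2.19 for Eps8, 1.83 for Espn, 1.75 for Vil1, 1.33 for Muc13, 1.32 for Ush1c, 1.16 for Myo1a and 0.297 for Muc1. The adhesion complex genes other than Ush1c thus led. Among the NSD2∆IE libraries replicate 2 was the highest for 7 members, beside 5321 of all 16347 genes tested. It was at 1.66 times the mean of the others for Cdhr5, 1.64 for Myo7b and 1.49 for Cdhr2, but 0.504 for Muc1. The median SD of log2 CPM within a group was 0.59 for the members and 0.28 for all genes in NSD2fl/fl, and 0.27 against 0.17 in NSD2∆IE. The replicate 2 libraries had the lowest Hoxb13 of their groups. NSD2∆IE replicate 3 was also low in Hoxb13, and it had the lowest Muc13, Eps8, Myo1a and Ush1c of the 6 libraries. The part of colon position in these values was not tested beyond the covariate.

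**Figure D3:**
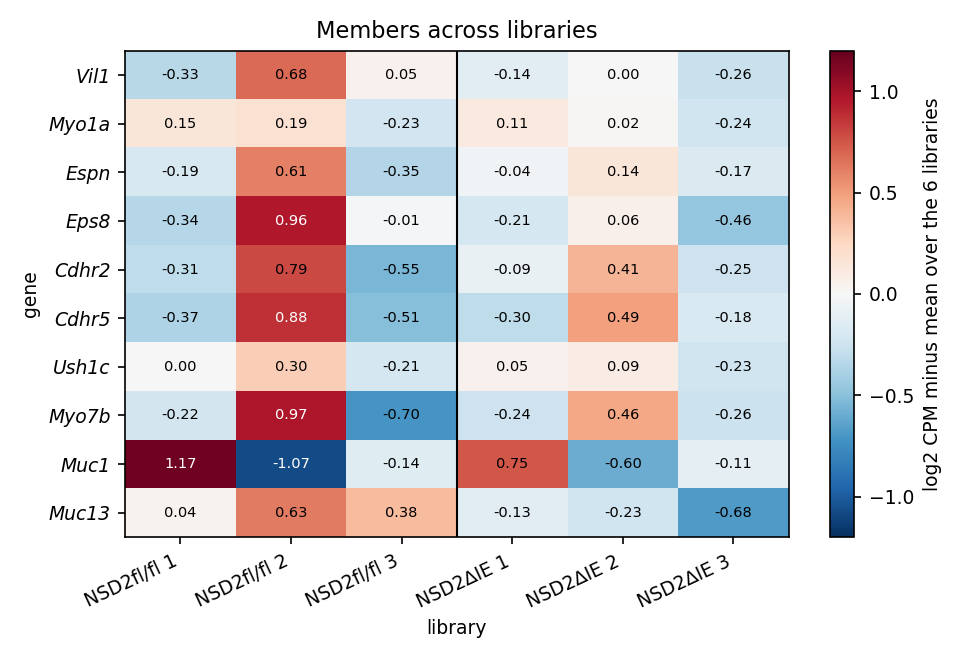
Log2 CPM of each gene minus its mean over the 6 libraries, as colour and printed value, with genes in rows and libraries in columns and a line between the genotypes. NSD2fl/fl replicate 2 is the highest column for 9 genes, from 0.19 for Myo1a to 0.97 for Myo7b, while Muc1 is at -1.07 there, and Muc13 is at or above 0.04 in the NSD2fl/fl columns and at or below -0.13 in the NSD2∆IE columns.

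Ratios within a library, in which scaling cancels, showed which members kept together. Cdhr2 stood to Cdhr5 in FPKM at 0.576, 0.517 and 0.537 in the NSD2fl/fl libraries and at 0.638, 0.521 and 0.527 in the NSD2∆IE libraries. The ratio of the tip-link partners thus varied little, while the highest level over the lowest was 2.53 for Cdhr2 and 2.63 for Cdhr5, and the groups overlapped (difference 0.04 on the log2 scale, exact permutation p = 0.8). Espn to Vil1 stood between 0.0523 and 0.0763, and Eps8 to Vil1 between 0.130 and 0.181. Ush1c to Myo7b, scaffold to motor, ran from 0.832 in NSD2fl/fl replicate 2 to 1.86 in NSD2fl/fl replicate 3, and Myo1a to Vil1 from 0.473 in NSD2fl/fl replicate 2 to 0.931 in NSD2fl/fl replicate 1. In these 5 ratios and that of Muc13 to Muc1 the groups overlapped, and exact permutation p-values ran from 0.4 to 1. The group difference of Ush1c to Myo7b went from -0.04 to -0.38, and that of Myo1a to Vil1 from 0.19 to -0.01, when NSD2fl/fl replicate 2 was left out.

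Each member was also set against the mean of 8 general epithelial markers in the same library, as a log2 difference. Muc13 lay 0.65, 0.65 and 0.79 above the markers in the NSD2fl/fl libraries and 0.40, 0.41 and 0.07 above them in the NSD2∆IE libraries. This was the only one of 16 ratios without overlap between the groups. The difference was -0.40, and the exact two-sided permutation p was 0.1, the smallest that 3 against 3 allows, or 0.873 adjusted over the 16 ratios. The ratios of the other 9 members to the markers overlapped between groups. Their differences were -0.12 for Eps8, 0.03 for Vil1 and 0.22 to 0.34 for Myo1a, Espn, Cdhr2, Cdhr5, Ush1c, Myo7b and Muc1, with exact permutation p-values of 0.3 to 0.9. Leaving out 1 library moved them widely: from -0.37 to 1.05 for Muc1, from -0.06 to 0.58 for Myo7b, from -0.26 to 0.10 for Eps8 and from -0.07 to 0.14 for Vil1, which changed sign, and from 0.05 to 0.57 for Cdhr5, 0.11 to 0.58 for Cdhr2, 0.12 to 0.41 for Myo1a, 0.09 to 0.38 for Espn and 0.14 to 0.35 for Ush1c. For Muc13 the difference stayed between -0.46 and -0.29. When factors from the same markers replaced TMM in the count model, 3 of 10 members stayed below 0. The median of the members was 0.21, beside 0.24 for all genes, whose median had moved by 0.279 on the log2 scale. The share of all genes below 0 in that fit was not taken. Muc13 was at -0.40 in that fit, with an unadjusted p of 0.0906 by edgeR.

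**Figure D4:**
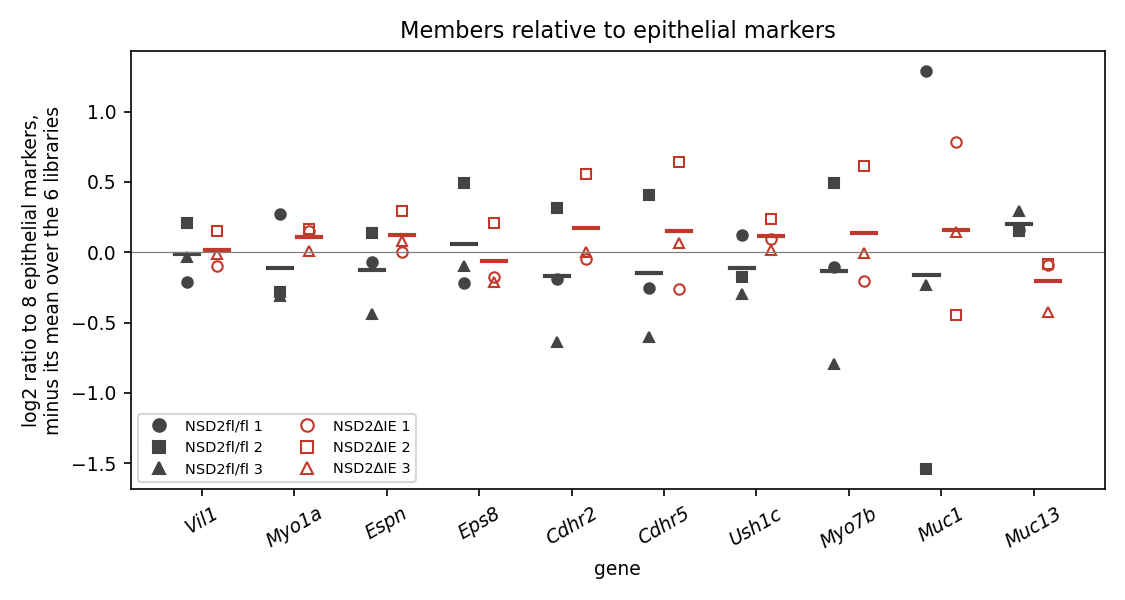
Log2 ratio of each gene to 8 epithelial markers in the same library, minus its mean over the 6 libraries. Filled grey symbols are NSD2fl/fl libraries, open red symbols NSD2∆IE libraries, shapes give the replicate number and short bars are group means. Only for Muc13 do all 3 NSD2∆IE points lie below all 3 NSD2fl/fl points, with group means 0.40 apart.

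Markers of smooth muscle and enteric nerve were higher in NSD2∆IE by unadjusted p. No gene of the marker lists passed an adjusted p under 0.05 by edgeR, while DESeq2 called 6 of 8 nerve markers, 1 of 8 of muscle, 1 of 5 tested of adipocytes and 1 of 6 of fibroblasts. Of all 16347 genes tested, DESeq2 called 455. The 8 epithelial markers summed to 12905, 19922 and 14898 CPM in the NSD2fl/fl libraries and 13885, 12705 and 11718 CPM in the NSD2∆IE libraries. All 8 had a fitted change below 0, and none had an unadjusted p under 0.05. Epcam and Cdh1, 2 of the 8, did not overlap between the groups, beside 7.28% of all genes in that direction. The 8 smooth muscle markers summed to 4051, 1412 and 4088 CPM and then 5087, 6707 and 10894 CPM, and 6 of 8 were higher at an unadjusted p under 0.05 by edgeR, as were 8.15% of all genes. Myh11, the smooth muscle myosin, had 301 to 808 CPM and then 1006 to 2068 CPM. The 8 enteric nerve markers summed to 46.9 to 77.1 CPM and then 101.02 to 129.7 CPM, with 8 of 8 higher at that threshold. Elavl4, which marks neurons, had 1.50 to 3.64 CPM and then 4.36 to 6.36 CPM. The 7 adipocyte markers summed to 1.74 to 18.8 CPM and then 13.7 to 51.1 CPM, with 2 of 5 tested higher at that threshold. The 18.8 CPM was in NSD2fl/fl replicate 2, where Cidec had 18.6 CPM and Adipoq was at 0. Of the 5 tested, 3 did not overlap and were higher in NSD2∆IE, beside 1860 of all 16347 genes. NSD2fl/fl replicate 2, the library highest in the members, was the lowest in muscle and nerve markers and the highest in epithelial ones, and NSD2∆IE replicate 3, the lowest in Muc13, was the highest in muscle. The part of tissue composition in the lower Muc13 was not tested beyond the ratios above.

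The 8 colonocyte markers summed to 5925, 20991 and 6992 CPM in the NSD2fl/fl libraries and 7896, 15628 and 10026 CPM in the NSD2∆IE libraries. Of them, 1 of 8 was lower at an unadjusted p under 0.05. The sum was highest in replicate 2 of each group, where Car1 alone had 7837 and 8057 CPM. Only 4 of 8 were highest of the 6 libraries in NSD2fl/fl replicate 2, and 4 of 8 highest of their group in NSD2∆IE replicate 2. Aqp8 went the other way, at 517, 252 and 591 CPM and then 624, 192 and 265 CPM. Goblet cell markers, at 28475 to 50597 CPM and then 19850 to 31086 CPM, had no gene at an unadjusted p under 0.05. The 7 immune markers, at 1364 to 2467 CPM and then 1161 to 1606 CPM, had none either. The 6 fibroblast markers stood at 1124 to 1408 CPM and 1161 to 1310.3 CPM, with 2 of 6 higher at that threshold.

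Of the wider lists of microvillus and brush border genes, 45 of 48 names were in the table and 42 were tested. None passed an adjusted p under 0.05, 4 were lower at an unadjusted p under 0.05 and 0 were higher, beside 2.96% and 8.15% of all genes. The 4 lower genes were Elf3, Baiap2l1, Calml4 and Klf4. DESeq2 called 1 of the 42, Elf3, at an adjusted p under 0.05, beside 455 of all 16347 genes tested.

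In the microvillus assembly list 17 of 18 tested genes had a fitted change below 0, with a median of -0.24, and NSD2fl/fl replicate 2 was the highest library for 15 of them. Calml4, a light chain that joins the adhesion complex through Myo7b, had 128, 173 and 141 CPM in the NSD2fl/fl libraries and 104, 116 and 112 CPM in the NSD2∆IE libraries. Baiap2l1, which binds curved membrane and actin, had 154, 193 and 145 CPM and then 133, 116 and 111 CPM. Neither gene overlapped between the groups, which makes 2 of 18 in this list, beside 7.28% of all genes in that direction. Calml4 changed by -0.42 (SE 0.140) and Baiap2l1 by -0.45 (SE 0.149) on the log2 scale, with edgeR p-values of 0.0205 and 0.0199 before adjustment and 0.359 for both after it. Without NSD2fl/fl replicate 2 the changes were -0.29 for Calml4 and -0.32 for Baiap2l1, the latter with an unadjusted p of 0.0506 by edgeR. By the same test, the unadjusted p of Calml4 rose above 0.05 without NSD2∆IE replicate 1 (0.0655) or 3 (0.0555). That of Baiap2l1 also did so without NSD2∆IE replicate 2 (0.0649) or 3 (0.0756). With factors from epithelial markers they were -0.11 and -0.16, with unadjusted p-values of 0.580 and 0.444 by edgeR.

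Among the regulators of epithelial differentiation, 7 of 8 had a fitted change below 0, with a median of -0.25, and 3 of 8 did not overlap between the groups (7.28% of all genes), Elf3, Klf4 and Cdx1. Elf3, an epithelial transcription factor of the ETS family, had 521, 577 and 456 CPM in the NSD2fl/fl libraries and 331, 332 and 364 CPM in the NSD2∆IE libraries. Its log2 fold change was -0.60 (SE 0.142). The adjusted p was 0.302 by edgeR, from an unadjusted p of 0.0044, while DESeq2 gave an adjusted p of 0.00694. It stood between -0.68 and -0.31 in the 17 alternatives run, at -0.51 without NSD2fl/fl replicate 2 and at -0.31 with factors from epithelial markers (unadjusted p 0.198 by edgeR). Klf4, a factor of differentiated colonocytes and goblet cells, had 505, 447 and 464 CPM and then 420.5, 303 and 345 CPM. Its log2 fold change was -0.41 (SE 0.161), and edgeR gave an unadjusted p of 0.0404 and, adjusted, 0.426. With factors from epithelial markers it was -0.15, and its unadjusted p rose above 0.05 there, with library totals, with upper-quartile factors, on both FPKM scales and in 4 of the 6 fits without 1 library, where the log2 fold change ran from -0.54 to -0.30. Hnf4a and Cdx2, textbook regulators of brush border genes, had log2 fold changes of -0.19 (SE 0.160) and 0.34 (SE 0.614), and Cdx2 was at 77.2 to 93.3 CPM in the 3 libraries high in Hoxb13 and at 242 to 305 CPM in the other 3.

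Of the other transmembrane mucins 5 of 8 were tested, and none had an unadjusted p under 0.05. Muc3 had 6070, 5427 and 4125 CPM in the NSD2fl/fl libraries and 4408, 3274 and 2570.3 CPM in the NSD2∆IE libraries. Per gene length its NSD2fl/fl mean was 356 FPKM, below that of Muc13. Its groups overlapped, and for its log2 fold change of -0.61 (SE 0.286) edgeR gave an unadjusted p of 0.0725. The largest changes in size were those of Muc20, at 1.12 (SE 0.780), and Muc16, at -1.10 (SE 1.11), both genes of low counts in every library.

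The brush border enzymes went the other way in fitted direction. Of 11 tested, 9 had a fitted change above 0, with a median of 0.40, and the largest were those of Enpep, a glutamyl aminopeptidase, at 1.22 (SE 0.542), and Ggt1, a glutamyl transferase, at 1.12 (SE 1.14). Enpep had 11.8, 20.2 and 6.32 CPM in the NSD2fl/fl libraries and 14.4, 48.1 and 27.1 CPM in the NSD2∆IE libraries. Ggt1 had 3.27, 15.9 and 0.505 CPM and then 4.72, 29.3 and 8.58 CPM. The groups overlapped for all 11 enzymes. NSD2∆IE replicate 2 was the highest of its group for 11 of 11, beside 5321 of all 16347 genes tested. With Hoxb13 as a covariate 5 of 11 enzymes were higher at an unadjusted p under 0.05 by edgeR, beside 12.5% of all genes in that fit, with log2 fold changes of 1.86 for Sis, 1.72 for Alpi, 1.36 for Ggt1, 1.12 for Enpep and 0.86 for Naaladl1, and none at an adjusted p under 0.05. Sis, the sucrase-isomaltase, had 25.2, 47.0 and 8.27 CPM in the libraries low in Hoxb13 and 0.0562 to 0.909 CPM in the others. Without NSD2fl/fl replicate 2, 9 genes of the wider lists were higher at that p, beside 9.35% of all genes in that fit, and 0 at an adjusted p under 0.05. They were the same 5 enzymes with Mep1a, Mep1b, Tmigd1 and Cdx2, with log2 fold changes from 0.66 for Mep1b to 5.23 for Sis. In that fit the NSD2fl/fl libraries left were high in Hoxb13, as only NSD2∆IE replicate 1 was in its group. Position markers thus differed between the groups there along with genotype. The genes singled out in these fits were chosen after their values were seen.

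The genes outside the set whose profile over the 6 libraries was most like the mean of the members were Src, Chmp4c, Znrf2, Cldn3 and Pdzd3. Likeness was the root mean square difference of centred log2 CPM, over 10690 genes with an average log2 CPM of at least 3. It was 0.04 for Src, 0.05 for Chmp4c, Znrf2 and Cldn3, and 0.06 for Pdzd3, beside a median of 0.31 over the genes compared. Of the members, Ush1c at 0.09 and Espn at 0.11 were nearest to their own mean, and Muc13 at 0.33, Myo7b at 0.34 and Muc1 at 0.91 were the farthest. Cldn3, a claudin of the tight junction, had 375, 554 and 345 CPM in the NSD2fl/fl libraries and 374, 382 and 324 CPM in the NSD2∆IE libraries. Src, a kinase that acts at cell junctions, had 149.6, 221 and 142 CPM and then 150.2, 162 and 131 CPM. All 5 were highest in NSD2fl/fl replicate 2, where the mean profile of the members stood at 0.49, so the choice by likeness fixed this. Their adjusted p-values in the genotype contrast, 0.709 to 0.832 by edgeR, largely follow from the same choice and are no separate result.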

How the data were processed

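RNA libraries of mouse colon, 3 of NSD2fl/fl and 3 of NSD2∆IE mice, were compared, grouped by the labels. Total RNA had been extracted with TRIzol. The submitters' processing notes list fastp, HISAT2, HTSeq, R 3.2.0 and mm10 without roles. Strand use and annotation were not given in the sources used here. The authors deposited whole-number counts per gene symbol, and the authors also deposited FPKM, which matched the counts and column totals to within 0.0783 bases of implied gene length over 17863 genes. With 38041832 to 38604680 counts per library, spread between libraries was the main error (biological coefficient of variation 0.311). Libraries differed pairwise beyond sampling noise (chi-square per degree of freedom at least 35.5).

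Counts were filtered with filterByExpr, scaled by TMM and tested with edgeR 4.0.16 (quasi-likelihood, two-sided, Benjamini-Hochberg over 16347 genes) in R 4.3.3. The SE was the size of the fitted change over the root of its F statistic. The labels do not say whether libraries of a group were separate animals, so p-values measure the spread between these samples. Ratios were tested by exact permutation over samples. Alternatives used RLE, upper-quartile, library-total and epithelial marker scaling, DESeq2 1.42.0, limma 3.58.1 (voom, or log2(FPKM + 1) and log2(FPKM + 0.1)), no filter, a replicate block, log2 CPM of Hoxb13 as covariate (prior count 2), and each library left out. Only the edgeR fits with TMM and with epithelial marker factors were tried on simulated counts. Genes varied independently there, so differences in position or composition shared by many genes were not simulated.

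The members and lists were chosen with earlier results of these data known. Named genes were all members, wider-list genes with an unadjusted p under 0.05 or otherwise the 2 largest changes per list, the 5 most similar genes, sex-linked genes, Hoxb13 and defining markers. Muc3, Cdx1, Cdx2, Hnf4a, Hoxb6, Sis, Alpi, Naaladl1, Mep1a, Mep1b, Tmigd1, Cdh1, Ceacam20, Car1, Aqp8 and Cidec were named after their values were seen. Slc9a3r1 and Nherf1 are names of 1 gene. Reads shared between Muc3 and Muc3a cannot be told apart here. Promoters came from RefSeq tables, and 2 members had none there.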

Additional observations from a re-analysis of the deposited data

How the results depend on the processing

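The limit on these results was the spread between libraries and not the depth, also for Muc1, which had the fewest counts. No member passed an adjusted p under 0.05 in any of the 17 alternatives, and Muc13 was below 0 in all of them, from -0.84 to -0.40. For the ratios 3 against 3 could not reach the threshold and fits without 1 library had no test, so their stability is not shown. The cause of the changes below was not tested, other than that leaving out a library leaves fewer samples. Shares of all genes at an unadjusted p were taken for the TMM fit of all libraries. With Hoxb13 as covariate and without NSD2fl/fl replicate 2 they were taken for higher genes alone. Counts of wider-list genes in the other fits have no such share beside them. With epithelial marker factors 0 members had an unadjusted p under 0.05, 3 were below 0, their median was 0.21, 0 wider-list genes were lower and 2 higher at that p, and the log2 fold change was 0.020 for Vil1, 0.20 for Myo1a, 0.23 for Espn, 0.31 for Cdhr2, 0.28 for Cdhr5, 0.22 for Ush1c and 0.22 for Myo7b. With library totals alone 5 members were below 0, 1 wider-list gene was lower and 1 higher, and Myo1a was at 0.044, Espn at 0.030, Cdhr2 at 0.086, Cdhr5 at 0.041 and Ush1c at 0.055. On log2(FPKM + 0.1) 3 members were below 0, 2 wider-list genes were lower and 1 higher, with Myo1a at 0.054, Espn at 0.081, Cdhr2 at 0.17, Cdhr5 at 0.13, Ush1c at 0.065, Myo7b at 0.10 and Muc1 at 0.14. On log2(FPKM + 1) 3 members were below 0, with Myo1a at 0.054, Espn at 0.075, Cdhr2 at 0.17, Cdhr5 at 0.13, Ush1c at 0.063, Myo7b at 0.095 and Muc1 at 0.065. These 4 scalings moved the median of all genes by 0.279, 0.127, 0.135 and 0.102, to 0.24, 0.086, 0.094 and 0.061. With limma-voom Cdhr2 was at 0.093, Cdhr5 at 0.095 and Myo7b at 0.065, and with upper-quartile factors Cdhr2 was at 0.024 and 1 wider-list gene was higher. With Hoxb13 as covariate 7 wider-list genes were higher, Cdhr2 was at 0.013 and Muc1 at 0.024. Without a filter 1 wider-list gene was higher. DESeq2 gave 1 wider-list gene higher and 1, Elf3, with an adjusted p under 0.05, among 455 of all genes.

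Same-numbered libraries deviated together with correlations of 0.50, 0.64 and -0.17, and 4 of 6 libraries correlated best with their own number in the other group. These values do not settle whether the numbers pair the samples, and the labels do not say. The main fit left the numbers out, and the block was run as an alternative. With the replicate block 8 wider-list genes were lower and 3 higher, with no share of all genes to set beside them. Cdhr2 was at 0.047, Cdhr5 at 0.0039 and Muc1 at 0.019 in that fit. The SE there was 0.187 for Cdhr5, 0.198 for Myo7b and 0.235 for Muc13, beside 0.421, 0.444 and 0.242 in the main fit.

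Leaving out 1 library at a time, the members with an unadjusted p under 0.05 numbered 0 to 1, with 0 without NSD2fl/fl replicate 2 or 3 or NSD2∆IE replicate 2 or 3. Members below 0 numbered 5 to 10, with 5 without NSD2fl/fl replicate 2 and 6 without NSD2∆IE replicate 3. Wider-list genes that were lower numbered 1 to 6 and higher 0 to 9, with 9 higher without NSD2fl/fl replicate 2 and 1 lower without NSD2∆IE replicate 3. The log2 fold change ran from -0.19 to 0.019 for Myo1a, from -0.27 to 0.25 for Espn, from -0.28 to 0.47 for Cdhr2, from -0.39 to 0.49 for Cdhr5, from -0.18 to 0.073 for Ush1c, from -0.45 to 0.47 for Myo7b and from -0.62 to 0.66 for Muc1.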
